A study of Homo sapiens with 8 samples.

Results

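The leukotriene synthesis genes described here are PLA2G4A (Entrez 5321), ALOX5AP (Entrez 241), ALOX5 (Entrez 240), LTA4H (Entrez 4048) and LTC4S (Entrez 4056), 5 of the 25906 genes in the deposited table. They were taken by symbol, in all 8 libraries. ALOX5AP was chosen because its level was among the steadiest rises with CTBP2 in these same libraries, so its values in that comparison are given as a description, without a test. The other 4 were chosen by their role beside it, to see whether the enzymes that ALOX5AP works with were expressed in the same cells. A filter of at least 1 FPKM (fragments mapped, scaled to transcript length and library size) in at least 2 libraries kept 12583 genes, and 4 of the 5 members passed it. LTC4S did not.

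Leukotrienes are short-lived lipid signals made from arachidonic acid, mainly by neutrophils, macrophages, mast cells, basophils and eosinophils, and they act in inflammation, leukocyte recruitment and airway narrowing. Cytosolic phospholipase A2, encoded by PLA2G4A, frees arachidonic acid from membranes. The membrane protein FLAP, encoded by ALOX5AP, presents it to 5-lipoxygenase, encoded by ALOX5, which makes the unstable epoxide leukotriene A4. LTA4H turns this epoxide into leukotriene B4, a leukocyte attractant, whereas LTC4S joins it to glutathione to start the cysteinyl leukotrienes. B lymphocytes are known to hold ALOX5 and ALOX5AP, although their leukotriene output depends on added stimuli.

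The cells were MM.1S and NCI-H929, 2 established human multiple myeloma lines, that is, malignant plasma cells in culture. MM.1S carries a MAF translocation and is known for high CCND2, and NCI-H929 carries an immunoglobulin translocation that drives FGFR3. Each line was transduced by lentivirus for 72 hours with an empty vector (EV) or with a vector that overexpresses CTBP2, a corepressor that binds DNA only through other proteins. The 4 groups held 2 libraries each, labelled as biological duplicates, from 1.3 µg of total RNA apiece. All cultures were therefore exposed to a lentiviral vector, the share of transduced cells is not given in the labels, each line stems from 1 patient, and in bulk RNA fewer cells with a transcript and less of it per cell cannot be told apart. The series names the MYC-IRF4 axis as its question.

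CTBP2 stood at 0.149 to 0.213 FPKM in the 4 EV libraries and at 1621 to 5884 FPKM in the 4 CTBP2 libraries, a sum that includes the transcript of the vector. The line genes did not follow the labels everywhere. CCND2 was 46.7 to 115 FPKM in 4 libraries and at most 0.0633 FPKM in the other 4, and FGFR3 was 13.6 to 22.2 FPKM in those other 4 and at most 0.0570 FPKM in the first 4, so a threshold of 10 FPKM had no library near it. The second library (replicate 2) labelled MM.1S CTBP2 had the CCND2 and FGFR3 levels of NCI-H929, and the second one labelled NCI-H929 CTBP2 had those of MM.1S. Both are kept in the groups of their labels, and results are also given without them (6 libraries) and with their line labels exchanged. Estimated depth was 16000000 to 21000000 fragments per library. All 10 plasma cell markers examined, such as SDC1, IRF4 and XBP1, reached at least 1 FPKM in 2 libraries. Of these, IRF4 was 132 to 160 FPKM with EV and 59.7 to 69.6 FPKM with CTBP2. MZB1 was 845 to 1074 FPKM with EV and 523 to 719 FPKM with CTBP2. Both were lower without overlap, a pattern found in 7.46% of all genes tested. The other markers overlapped between the vectors. Their means were lower with CTBP2 except for CD38 (19.1 FPKM with EV and 36.2 FPKM with CTBP2) and SDC1 (286 and 293 FPKM). The part of these markers in the other results was not tested.

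The promoter windows of the members shown next run from 250 bases before to 50 bases after the annotated start. They are from RefSeq on GRCh38.p14, a different build from the GRCh37 named for the deposited table, and were matched by gene symbol. Of the 5 members 4 had such a window. CTBP2 is brought to DNA by repressors such as ZEB1, whose zinc fingers bind the core letters CACCT, so every CACCT or its reverse complement AGGTG was put in capitals. Either form occurs in 51.6% of the 35116 windows of the table, so its presence sets no gene apart. ALOX5AP (chr13:30713235-30713534, plus strand) has 1 match, in the AGGTG form, from base 265 of the window. PLA2G4A (chr1:186828699-186828998, plus strand) has 1 match, from base 195, and LTA4H (chr12:96035538-96035837, minus strand) and LTC4S (chr5:179793736-179794035, plus strand) have 0.
ALOX5AP: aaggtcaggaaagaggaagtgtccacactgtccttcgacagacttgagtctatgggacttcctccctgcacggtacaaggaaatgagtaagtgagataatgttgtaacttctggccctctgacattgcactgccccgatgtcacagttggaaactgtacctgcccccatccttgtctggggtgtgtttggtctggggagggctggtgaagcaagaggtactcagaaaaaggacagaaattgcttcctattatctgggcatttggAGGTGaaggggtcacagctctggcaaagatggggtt
PLA2G4A: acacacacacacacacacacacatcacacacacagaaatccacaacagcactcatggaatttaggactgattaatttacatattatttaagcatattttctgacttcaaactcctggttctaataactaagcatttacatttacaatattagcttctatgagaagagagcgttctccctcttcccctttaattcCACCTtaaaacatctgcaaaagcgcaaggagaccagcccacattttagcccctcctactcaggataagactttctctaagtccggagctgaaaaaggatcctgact
LTA4H: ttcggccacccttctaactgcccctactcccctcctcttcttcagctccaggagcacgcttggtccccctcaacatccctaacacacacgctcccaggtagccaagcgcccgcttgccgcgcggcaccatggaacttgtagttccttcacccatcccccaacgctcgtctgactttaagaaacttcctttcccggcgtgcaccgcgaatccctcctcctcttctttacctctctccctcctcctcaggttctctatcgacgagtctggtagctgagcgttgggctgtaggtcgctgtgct
The ALOX5AP window lies at the upstream of 2 annotated transcript starts, which are 22030 bases apart. The deposited table gives 1 value for both ALOX5AP transcripts, so the libraries do not say which start was used. A match of letters is a description of the window and not a binding site, and its absence says nothing about a factor.

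PLA2G4A, which frees the substrate at the head of the pathway, was expressed in every library. Its level in MM.1S was 13.3 and 12.6 FPKM with EV and 7.06 FPKM with CTBP2 (replicate 1), and the second library labelled MM.1S CTBP2 had 5.05 FPKM. In NCI-H929 it was 9.74 and 8.04 FPKM with EV and 8.15 FPKM with CTBP2 (replicate 1), and the second library labelled NCI-H929 CTBP2 had 8.11 FPKM. The 2 lowest libraries were thus CTBP2 libraries and the 3 highest were EV libraries, but the vectors overlapped, since NCI-H929 EV replicate 2 lay below 2 CTBP2 libraries. The log2 fold change of PLA2G4A on the log2(FPKM + 1) scale was -0.55 (SE 0.22, 95% interval -1.08 to -0.03) and did not pass (limma, Benjamini-Hochberg adjusted p = 0.199). It was -0.45 (SE 0.18, adjusted p = 0.107) in 6 libraries. With the line labels of the 2 displaced libraries exchanged PLA2G4A was called lower at -0.55 (SE 0.15, limma adjusted p = 0.0230). In 6 libraries PLA2G4A was also called without NCI-H929 CTBP2 replicate 1 (-0.79, adjusted p = 0.0490), and was -0.11 (adjusted p = 0.747) without MM.1S CTBP2 replicate 1. Under equal totals in 8 libraries it was -0.29 (adjusted p = 0.490).

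ALOX5AP was present in all 8 libraries and its level separated the vectors completely. The EV libraries had 4.73 and 5.87 FPKM in MM.1S and 5.49 and 3.53 FPKM in NCI-H929. With CTBP2 the level was 26.9 FPKM in MM.1S replicate 1 and 32.3 FPKM in NCI-H929 replicate 1. The second libraries labelled MM.1S CTBP2 and NCI-H929 CTBP2 had 29.6 and 21.7 FPKM. The lowest CTBP2 library was 3.69 times the highest EV library, and since the separation is by vector it does not depend on the line labels. The fitted log2 fold change was 2.28 (SE 0.19), 2.39 (SE 0.20) in 6 libraries and 2.28 (SE 0.17) with the labels exchanged.

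These values gave ALOX5AP rank 15 among 12583 genes by log2 fold change, and rank 2 by the gap between the lowest CTBP2 and the highest EV library, which was 1.72 on the log2(FPKM + 1) scale. All 4 CTBP2 libraries lay above all 4 EV libraries for 907 genes, 7.21% of those tested, and ALOX5AP was picked from among them. Within the libraries whose line genes matched their label, MM.1S CTBP2 replicate 1 was 5.07 times the mean of MM.1S EV and NCI-H929 CTBP2 replicate 1 was 7.17 times the mean of NCI-H929 EV. By the line read from CCND2 and FGFR3, the ratio of CTBP2 to EV means of ALOX5AP was 4.58 in the 4 CCND2 libraries and 6.86 in the 4 FGFR3 libraries. The difference between these ratios was not tested.

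**Figure D1:**
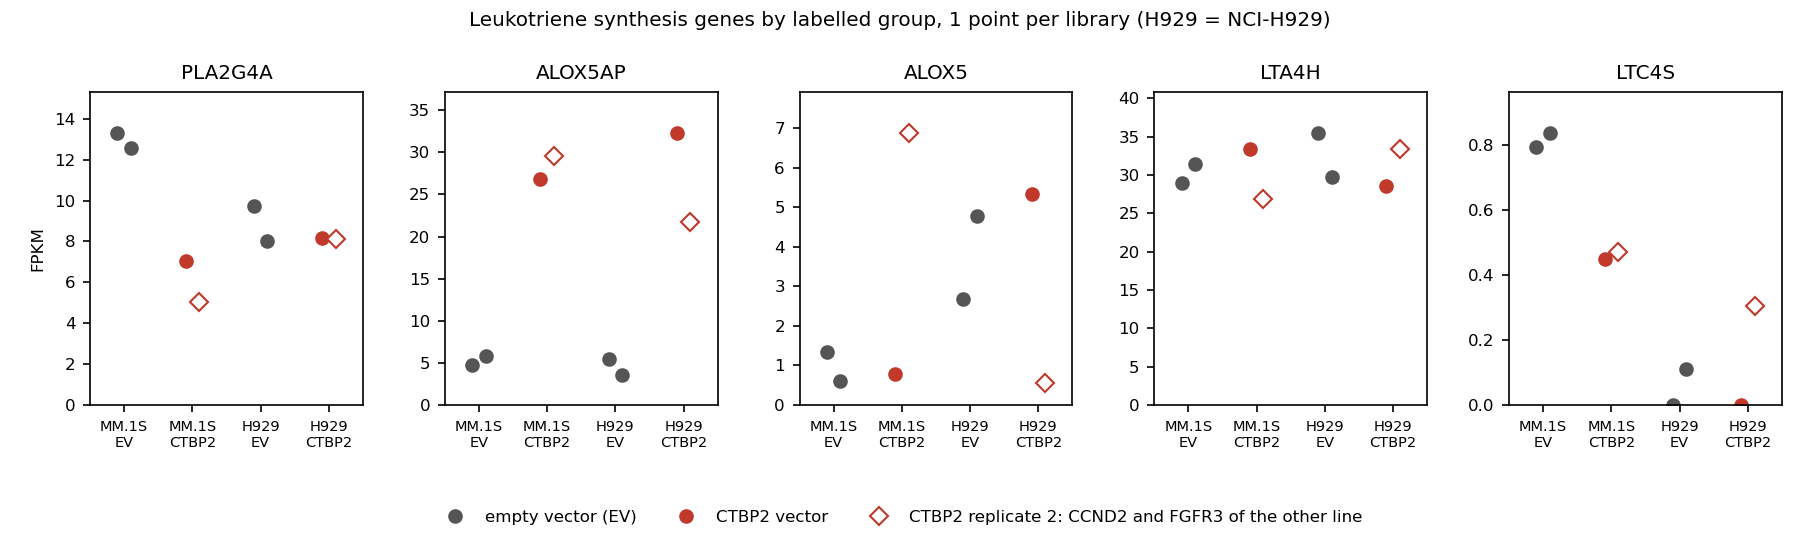
Levels of the 5 leukotriene synthesis genes in FPKM (y axis, each panel with its own scale from 0) by labelled line and vector (x axis), 1 point per library, with open diamonds for the CTBP2 replicate 2 libraries whose CCND2 and FGFR3 were those of the other line. ALOX5AP lies at 3.53 to 5.87 FPKM in all EV libraries and at 21.7 to 32.3 FPKM in all CTBP2 libraries, whereas LTA4H stays between 26.9 and 35.5 FPKM throughout.

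ALOX5, the lipoxygenase that FLAP serves, was low in 4 libraries and several-fold higher in the other 4, and this order followed the line genes. In MM.1S it was 1.35 and 0.607 FPKM with EV and 0.796 FPKM with CTBP2 (replicate 1), and the second library labelled MM.1S CTBP2, which had FGFR3, stood at 6.88 FPKM. In NCI-H929 it was 2.67 and 4.77 FPKM with EV and 5.32 FPKM with CTBP2 (replicate 1), and the second library labelled NCI-H929 CTBP2, which had CCND2, stood at 0.554 FPKM. Every ALOX5 value in the CCND2 libraries (0.554 to 1.35 FPKM) was below every value in the FGFR3 libraries (2.67 to 6.88 FPKM), while the vectors overlapped over nearly the whole range.

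Between the EV libraries of the lines, ALOX5 was higher in NCI-H929 by 1.24 on the log2 scale (SE 0.27, 95% interval 0.61 to 1.88, limma Benjamini-Hochberg adjusted p = 0.00763). ALOX5 passed the filter only through the FGFR3 libraries, since among the CCND2 libraries MM.1S EV replicate 1 alone reached 1 FPKM. Its call is thus given as a description and adds no support to that difference. That call was lost without MM.1S EV replicate 1 (adjusted p = 0.0546), MM.1S EV replicate 2 (0.116) or NCI-H929 EV replicate 2 (0.0772), and without a filter on low values (0.161), though the sign of the ALOX5 difference was the same in each. With CTBP2 the log2 fold change of ALOX5 was 0.20 (SE 0.65, 95% interval -1.34 to 1.73, limma adjusted p = 0.901). In 6 libraries it was 0.17 (SE 0.25, 95% interval -0.40 to 0.75, adjusted p = 0.630), and with the labels exchanged it was 0.20 (SE 0.23, 95% interval -0.32 to 0.71, adjusted p = 0.510). No ALOX5 change with CTBP2 common to both lines was detectable. At levels near 1 FPKM this scale compresses a fold of FPKM, so the intervals do not bound that fold. The CTBP2 mean of ALOX5 in FPKM was 0.69 times the EV mean in the CCND2 libraries and 1.64 times it in the FGFR3 libraries. The difference between these ratios was not tested.

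The ratio of FLAP to its enzyme, in FPKM within each library, is given as a description, since its difference between vectors restates the ALOX5AP values that chose the gene. ALOX5AP over ALOX5 was 3.50 and 9.69 in the MM.1S EV libraries and 33.8 in MM.1S CTBP2 replicate 1. It was 2.06 and 0.741 in the NCI-H929 EV libraries and 6.08 in NCI-H929 CTBP2 replicate 1. The second libraries labelled MM.1S CTBP2 and NCI-H929 CTBP2 had ratios of 4.30 and 39.2. In NCI-H929 EV replicate 2 alone ALOX5 exceeded ALOX5AP, and the 2 highest ratios were in CTBP2 libraries with CCND2.

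**Figure D2:**
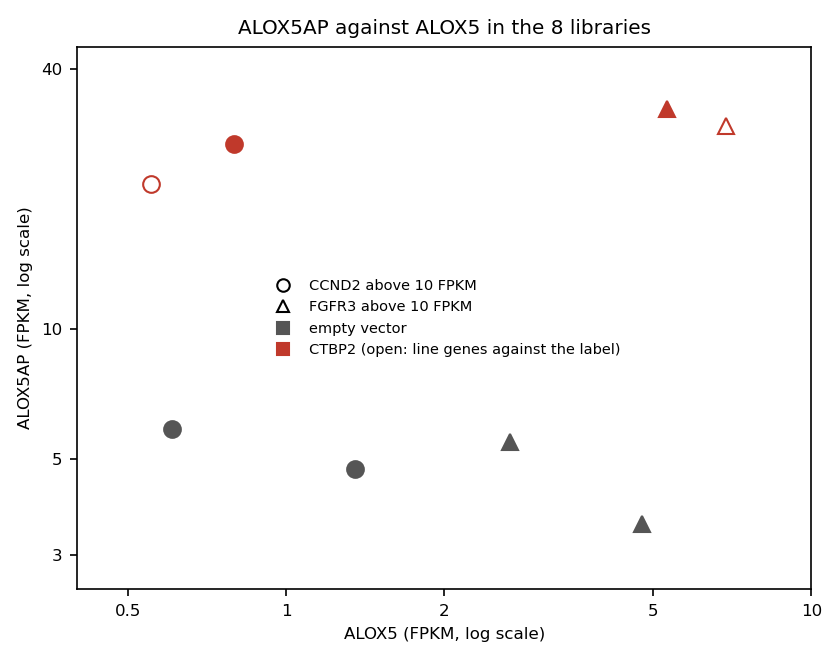
ALOX5AP (y axis, FPKM, log scale) against ALOX5 (x axis, FPKM, log scale) in the 8 libraries, with circles for libraries with CCND2 above 10 FPKM, triangles for those with FGFR3 above 10 FPKM, grey for EV and red for CTBP2. The vectors separate along the ALOX5AP axis and the line genes along the ALOX5 axis, from 0.554 to 1.35 FPKM in circles and from 2.67 to 6.88 FPKM in triangles.

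LTA4H, the hydrolase that makes leukotriene B4, was the most abundant member in every EV library and nearly level across all 8 libraries. It was 28.9 and 31.5 FPKM in MM.1S EV, 33.4 FPKM in MM.1S CTBP2 replicate 1 and 26.9 FPKM in the second library labelled MM.1S CTBP2. It was 35.5 and 29.8 FPKM in NCI-H929 EV, 28.6 FPKM in NCI-H929 CTBP2 replicate 1 and 33.4 FPKM in the second library labelled NCI-H929 CTBP2. The highest LTA4H value was in an EV library and the lowest in a CTBP2 library, and the groups overlapped. The log2 fold change with CTBP2 was -0.04 (SE 0.14, 95% interval -0.37 to 0.28, limma Benjamini-Hochberg adjusted p = 0.902), and it was positive after scaling to equal totals (0.25) or quantiles (0.13). In 6 libraries it was -0.02 (SE 0.15, 95% interval -0.37 to 0.33, adjusted p = 0.931), and no LTA4H difference was detectable.

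ALOX5AP over LTA4H, as a ratio of FPKM, was 0.119 to 0.187 in the 4 EV libraries and 0.650 to 1.13 in the 4 CTBP2 libraries. ALOX5AP exceeded LTA4H in NCI-H929 CTBP2 replicate 1 and in the second library labelled MM.1S CTBP2, both with FGFR3, and stayed below it in the other 6.

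LTC4S, which makes leukotriene C4, was at the edge of detection. Its MM.1S levels were 0.795 and 0.838 FPKM with EV and 0.450 FPKM with CTBP2 (replicate 1), and the second library labelled MM.1S CTBP2 had 0.471 FPKM. In NCI-H929 it was listed at 0 in EV replicate 1 and in CTBP2 replicate 1 and at 0.109 FPKM in EV replicate 2, and the second library labelled NCI-H929 CTBP2 had 0.306 FPKM. On the annotated 666-base transcript these LTC4S values come to an estimated 0 to 8.9 fragments per library, against a floor of 3 fragments at 0.213 to 0.282 FPKM. LTC4S was at or below that floor in 3 of the 4 libraries labelled NCI-H929. The EV libraries of the lines lay on either side of it, at 8.9 and 8.9 estimated fragments in MM.1S and at 0 and 1.3 in NCI-H929. LTC4S reached 1 FPKM in no library and was not tested.

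Per unit length, the order of the members within the EV libraries was LTA4H, then PLA2G4A, ALOX5AP, ALOX5 and LTC4S in MM.1S EV replicate 1 and NCI-H929 EV replicate 1. In MM.1S EV replicate 2 LTC4S at 0.838 FPKM stood above ALOX5 at 0.607 FPKM, and in NCI-H929 EV replicate 2 ALOX5 at 4.77 FPKM stood above ALOX5AP at 3.53 FPKM. Only LTA4H and PLA2G4A thus kept their places in all 4 EV libraries. In each of the 4 CTBP2 libraries ALOX5AP, which was chosen for its high values there, stood above PLA2G4A. Of the 3 other members that could be tested with CTBP2, PLA2G4A, ALOX5 and LTA4H, 0 passed in 8 libraries, beside 3.34% of all genes tested, and 0 passed in 6 libraries, beside 24.5%. With the labels exchanged 1 of the 3 passed, PLA2G4A, beside 34.1%.

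In the EV libraries, a contrast that did not choose the members, 2 of the 4 testable members differed between the lines, beside 54.5% of all genes, a share near the background. ALOX5 was the higher one in NCI-H929. It passed the filter only through the FGFR3 libraries, so its call adds no support to that difference. PLA2G4A was lower in NCI-H929, with a log2 difference of -0.50 (SE 0.16, limma Benjamini-Hochberg adjusted p = 0.0341). The PLA2G4A call was lost when any 1 EV library was left out (adjusted p from 0.0714 without NCI-H929 EV replicate 1 to 0.173 without NCI-H929 EV replicate 2). ALOX5AP differed by -0.21 (SE 0.21, 95% interval -0.72 to 0.30, limma adjusted p = 0.432) and LTA4H by 0.10 (SE 0.16, 95% interval -0.28 to 0.49, adjusted p = 0.606). The baseline level of ALOX5AP was thus not distinguishable between the lines.

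The rest of the eicosanoid pathway was read from a list of 81 further genes in 12 roles, which includes the 4 other members. Of these, 42 passed the filter and 39 did not, 37 of them without reaching 1 FPKM in any library. In 8 libraries 1 of the 42 rose with CTBP2 and 0 fell, beside 1.53% of all genes called higher and 1.81% called lower. At an unadjusted p under 0.05 there were 11 of 42, beside 22.7% of all genes. In 6 libraries 8 rose and 1 fell, beside 11.5% and 13.0% of all genes. With the line labels exchanged 15 rose and 2 fell, beside 17.4% and 16.7%. PTGER4 is among the 8 and the 15, and TBXAS1 among the 15. PTGER4 reached 1 FPKM in no EV library, and TBXAS1 only in MM.1S EV replicate 2 (1.19 FPKM). Both thus passed the filter only through CTBP2 libraries, and their calls do not support a rise. The median log2 fold change of the list was 0.19 in 8 libraries, against 0.04 for all genes tested.

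Among the 16 phospholipases A2, 8 passed the filter and PLA2G6 alone was called in 8 libraries. PLA2G6 encodes the calcium-independent phospholipase A2 beta, a second route to free arachidonic acid. Its level was 5.42 and 6.06 FPKM in MM.1S EV, 2.91 and 3.81 FPKM in NCI-H929 EV, and 10.8 FPKM in MM.1S and 9.60 FPKM in NCI-H929 with CTBP2 (replicate 1). The second libraries labelled MM.1S CTBP2 and NCI-H929 CTBP2 had 11.9 and 10.2 FPKM. All CTBP2 libraries were above all EV libraries, a pattern found in 7.21% of all genes. PLA2G6 rose by 1.10 on the log2 scale (SE 0.16, limma Benjamini-Hochberg adjusted p = 0.0327), by 1.05 in 6 libraries (SE 0.17, adjusted p = 0.00757) and by 1.10 with the labels exchanged (SE 0.16, adjusted p = 0.00380). In 8 libraries the call was lost without any 1 of MM.1S EV replicate 1, MM.1S EV replicate 2, MM.1S CTBP2 replicate 1, NCI-H929 EV replicate 1, NCI-H929 EV replicate 2 or NCI-H929 CTBP2 replicate 1 (adjusted p from 0.0842 to 0.154), with the log2 fold change between 0.997 and 1.18. In 6 libraries it was lost without NCI-H929 CTBP2 replicate 1 (0.81, adjusted p = 0.0530).

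The promoter window of PLA2G6 (RefSeq, GRCh38.p14, chr22:38181781-38182080, minus strand), shown because it was the called phospholipase, has 2 matches in capitals, CACCT from base 21 and AGGTG from base 296.
PLA2G6: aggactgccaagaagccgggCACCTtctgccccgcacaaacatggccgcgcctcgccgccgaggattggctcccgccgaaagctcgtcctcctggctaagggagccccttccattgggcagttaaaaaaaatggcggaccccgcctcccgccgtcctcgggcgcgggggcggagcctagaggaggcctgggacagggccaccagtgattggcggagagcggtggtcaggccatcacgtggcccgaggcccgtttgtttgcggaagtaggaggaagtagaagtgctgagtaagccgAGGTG
As for ALOX5AP, the matches describe letters that 51.6% of windows share.

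PLA2G4C, the cytosolic phospholipase A2 gamma, was 1.70 and 2.05 FPKM in MM.1S EV and 0.0208 and 0.0695 FPKM in NCI-H929 EV. It passed in 6 libraries at 0.55 (SE 0.15, limma adjusted p = 0.0372) and not in 8 (0.46, adjusted p = 0.704). In 6 the call held only without NCI-H929 CTBP2 replicate 1 (adjusted p = 0.0494) among the 6 libraries left out in turn, was lost without each of the other 5 (0.0560 to 0.130), and was lost under quantile normalization (0.33, adjusted p = 0.155). The most abundant of this role was PLA2G15, the lysosomal phospholipase, at 11.3 to 110 FPKM, which followed the line genes. Its 4 lowest values, 11.3 to 20.0 FPKM, were in the FGFR3 libraries and its 4 highest, 51.8 to 110 FPKM, in the CCND2 libraries.

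Beside LTA4H and LTC4S, the enzyme MGST2 can join leukotriene A4 to glutathione. MGST2 was 7.59 and 10.8 FPKM in MM.1S EV and 21.1 FPKM in MM.1S CTBP2 replicate 1, and the second library labelled NCI-H929 CTBP2 had 21.6 FPKM. It was listed at 0 in both NCI-H929 EV libraries, and was 0.177 FPKM in NCI-H929 CTBP2 replicate 1 and 0.0741 FPKM in the second library labelled MM.1S CTBP2. MGST2 thus separated the libraries by line gene, not by vector. It passed the filter only through the 4 CCND2 libraries, so its call between the EV groups (limma adjusted p = 2.24e-05) adds no support to that difference. No fold is given because 1 group is at 0. Within the CCND2 libraries the CTBP2 mean of MGST2 was 2.33 times the EV mean. Its CTBP2 contrast did not pass in 8 libraries (0.66, SE 1.31, adjusted p = 0.828) or in 6 (0.69, SE 0.23, adjusted p = 0.0611), and passed with the labels exchanged (0.66, SE 0.20, adjusted p = 0.0348).

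MGST3, a glutathione transferase of the same membrane protein family as FLAP and LTC4S, was 20.2 to 24.1 FPKM in the EV libraries and 29.2 to 45.4 FPKM in the CTBP2 libraries, without overlap. It rose in 6 libraries by 0.72 (SE 0.19, limma adjusted p = 0.0300) and stood at 0.62 (SE 0.17, adjusted p = 0.0899) in 8. The call in 6 was lost without NCI-H929 CTBP2 replicate 1 (0.33, adjusted p = 0.259), MM.1S EV replicate 2, NCI-H929 EV replicate 1 or NCI-H929 EV replicate 2 (adjusted p from 0.0628 to 0.0824), and the value was 1.12 without MM.1S CTBP2 replicate 1. MGST1, of the same family, was 14.3 to 21.3 FPKM in the CCND2 libraries and at most 0.141 FPKM in the FGFR3 libraries. COTL1, an actin-binding protein that also binds 5-lipoxygenase, was 8.20 to 19.8 FPKM and did not pass in 8 libraries (0.40, SE 0.23, adjusted p = 0.364).

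Of the leukotriene and lipoxin receptors 3 of 7 passed the filter, and 0 were called with CTBP2 in 8 or 6 libraries. Among the 3, only LTB4R had no overlap between the CCND2 and FGFR3 libraries. CYSLTR1, the receptor for cysteinyl leukotrienes, was the most abundant at 10.4 to 26.3 FPKM. In MM.1S it was 14.1 and 10.4 FPKM with EV and 25.6 FPKM with CTBP2 (replicate 1), and in NCI-H929 it was 25.6 and 24.3 FPKM with EV and 24.9 FPKM with CTBP2 (replicate 1). The second libraries labelled MM.1S CTBP2 and NCI-H929 CTBP2 had 26.3 and 18.6 FPKM. The 2 MM.1S EV libraries were thus the lowest for CYSLTR1. The NCI-H929 EV libraries were higher than they were by 0.99 (SE 0.18, limma adjusted p = 0.00381). That call was lost in 4 of 14 alternatives, among them without NCI-H929 EV replicate 1 or NCI-H929 EV replicate 2. The CTBP2 contrast gave 0.42 (SE 0.28, adjusted p = 0.435) in 8 libraries and 0.51 (SE 0.24, adjusted p = 0.148) in 6.

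LTB4R, the high-affinity leukotriene B4 receptor, was 1.78 to 2.22 FPKM in the CCND2 libraries and 5.71 to 7.64 FPKM in the FGFR3 libraries. It was higher in NCI-H929 EV by 1.28 (SE 0.17, limma adjusted p = 0.000912). LTB4R2, at 2.10 to 5.09 FPKM, overlaps LTB4R in the genome, and without a stated use of strand or of shared reads their values are uncertain. CYSLTR2, OXGR1, GPR17 and FPR2 did not pass the filter.

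**Figure D3:**
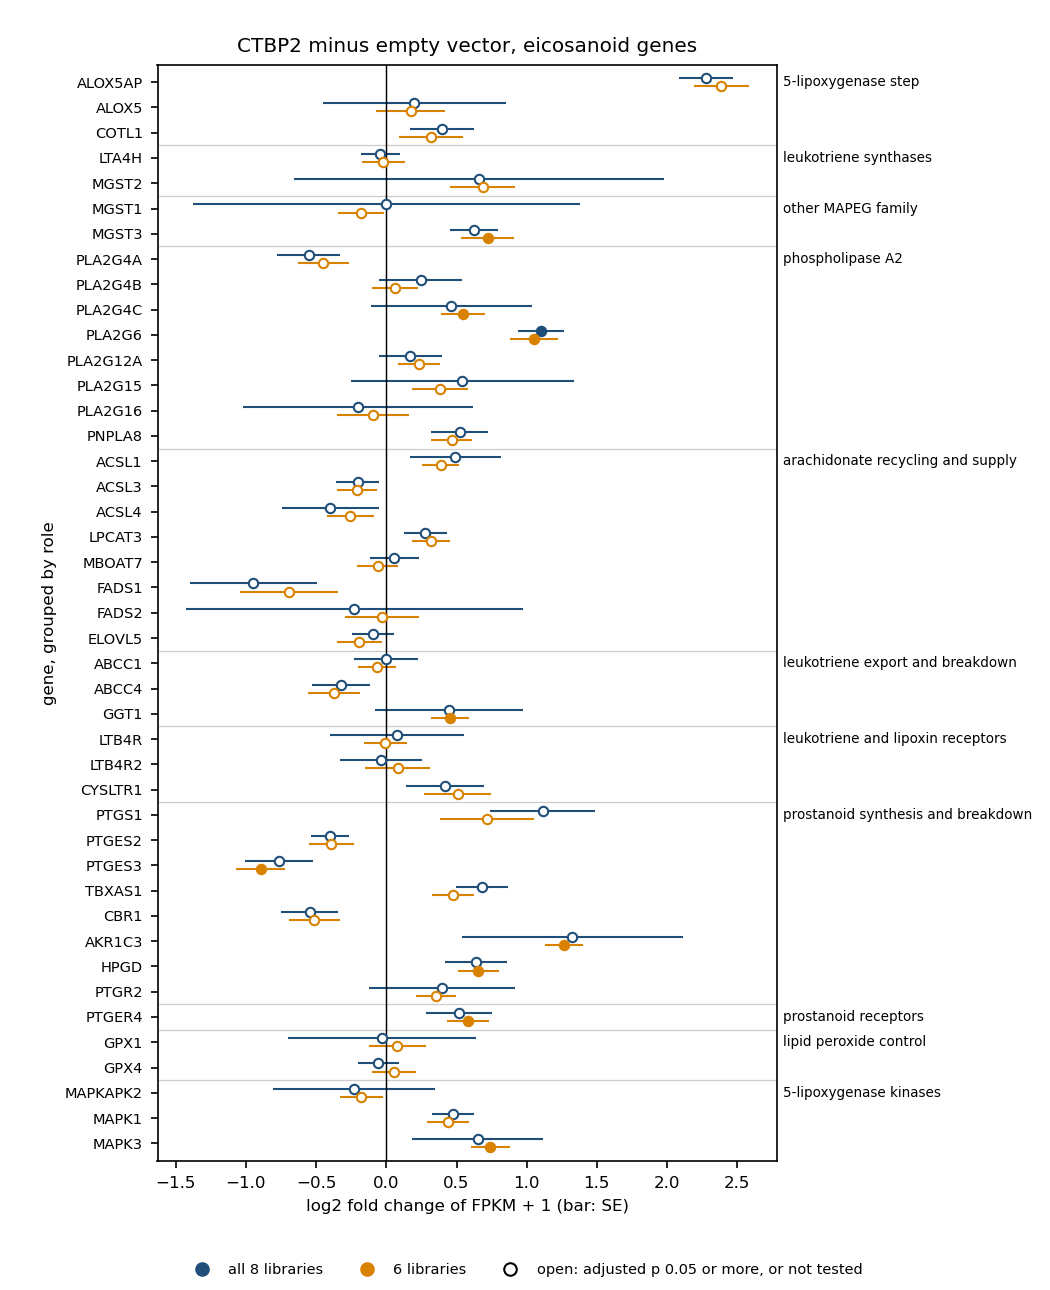
Log2 fold change of FPKM + 1 with CTBP2 (x axis, bars 1 SE) for ALOX5AP and the 42 eicosanoid genes past the filter (y axis, grouped by role), in 8 libraries (blue) and in 6 (orange), filled where the adjusted p was under 0.05. ALOX5AP, which was not tested, lies apart at 2.28 and 2.39, and PLA2G6 is the only gene filled in blue, while 9 are filled in orange.

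Of the export and breakdown genes 3 of 10 passed the filter. ABCC1, which exports leukotriene C4, was 5.61 to 10.8 FPKM and differed by -0.0013 on the log2 scale in 8 libraries (SE 0.23, limma adjusted p = 0.999). GGT1, which trims leukotriene C4 to D4, was 17.7 to 75.0 FPKM and rose in 6 libraries by 0.45 (SE 0.14, adjusted p = 0.0448) but not in 8 (adjusted p = 0.684). The call in 6 was lost when any 1 of them was left out (adjusted p from 0.0638 without MM.1S EV replicate 2 to 0.159 without NCI-H929 CTBP2 replicate 1). GGT1 has near-identical copies in the genome, so reads may have been shared among them and its value is uncertain. None of the 5 other lipoxygenases (ALOX12, ALOX12B, ALOX15, ALOX15B and ALOXE3) passed the filter, and the highest value among them was 0.531 FPKM, of ALOX12B. ALOX5 was therefore the only lipoxygenase of the list that reached 1 FPKM in 2 libraries.

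In the prostanoid branch, which draws on the same arachidonic acid, 8 of 13 synthesis and breakdown genes passed the filter and 0 were called in 8 libraries. PTGS2, the inducible cyclooxygenase, was at most 0.105 FPKM, and PTGS1, the constitutive one, was 0.257 to 1.56 FPKM with EV and 0.981 to 7.55 FPKM with CTBP2, without passing (1.11, SE 0.38, limma adjusted p = 0.140). In 6 libraries AKR1C3 (1.26, SE 0.14, adjusted p = 0.00487) and HPGD (0.66, SE 0.15, adjusted p = 0.0176) rose and PTGES3 fell by 0.90 (SE 0.17, adjusted p = 0.0118). AKR1C3 reduces prostaglandins and steroids and has close paralogs, which makes its value uncertain, HPGD inactivates prostaglandins, and PTGES3 is a prostaglandin E synthase that is also an HSP90 cochaperone. PTGES3 was 212 to 289 FPKM with EV and 102 to 205 FPKM with CTBP2, without overlap. Its call in 6 libraries was lost without NCI-H929 CTBP2 replicate 1 (-0.63, adjusted p = 0.108) and under quantile normalization (-0.58, adjusted p = 0.0520). That of HPGD was lost without MM.1S CTBP2 replicate 1 (adjusted p = 0.0502) or MM.1S EV replicate 2 (0.0546) and under quantile normalization (0.35, adjusted p = 0.120), while that of AKR1C3 held in each. PTGER4, a prostaglandin E2 receptor, was the only one of 9 prostanoid receptors past the filter, at 0.0332 to 1.47 FPKM. It passed only through 2 CTBP2 libraries, MM.1S replicate 1 (1.47 FPKM) and the second one labelled NCI-H929 CTBP2 (1.115 FPKM). EV values were at most 0.670 FPKM. Its call as higher in 6 libraries (0.58, SE 0.15, limma adjusted p = 0.0283) is thus given as a description and does not support a rise. The PTGER4 call held without NCI-H929 CTBP2 replicate 1 (adjusted p = 0.0491), was lost without each of the other 5 libraries (0.0580 to 0.0768) and was lost under quantile normalization (0.30, adjusted p = 0.171).

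Of the 3 kinases that can phosphorylate 5-lipoxygenase, MAPKAPK2 at 36.7 to 170 FPKM was the most abundant and followed the line genes. MAPK3 rose in 6 libraries by 0.74 (SE 0.14, limma adjusted p = 0.0110) and stood at 0.65 (SE 0.47, adjusted p = 0.467) in 8. The MAPK3 call in 6 was lost without MM.1S CTBP2 replicate 1 (adjusted p = 0.0621). GPX1 and GPX4, which lower the lipid peroxides that 5-lipoxygenase needs, were not called with CTBP2. All 8 genes that recycle or supply arachidonate passed the filter, and 0 were called in 8 or in 6 libraries. With the labels exchanged 1 was called, ACSL1, as higher (0.49, SE 0.13, limma adjusted p = 0.0204), beside 34.1% of all genes.

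Line differences were more frequent in the list than differences with CTBP2, as among all genes. Between the EV libraries 32 of 42 list genes were called, 15 higher and 17 lower in NCI-H929. Of all genes 54.5% were called, 23.6% higher and 30.9% lower. Some list genes, such as ALOX5, MGST1 and MGST2, passed the filter only through 1 line, and the larger share in the list was not tested. By the line read from CCND2 and FGFR3, 21 of 42 (50.0%) had all 4 libraries of 1 line apart from all 4 of the other. That held for 44.5% of all genes, so on this measure the list did not stand far from the background. By vector, 2 of 42 (MGST3 and PLA2G6) had all CTBP2 libraries above all EV libraries and 1 (PTGES3) had them below, beside 7.21% and 7.46% of all genes.

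**Figure D4:**
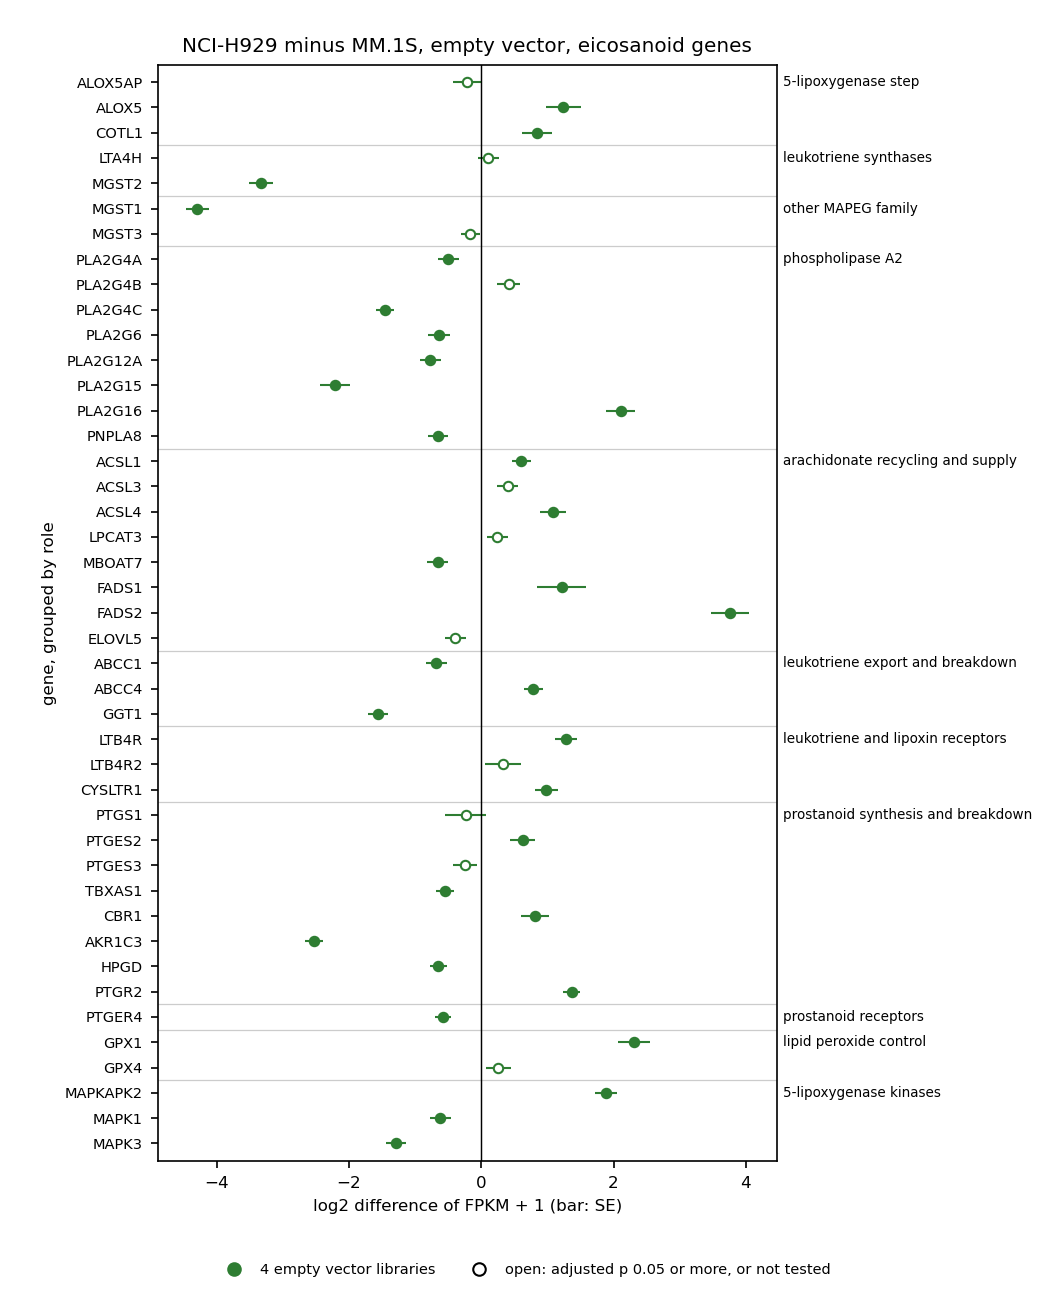
Log2 difference of FPKM + 1 between the NCI-H929 and MM.1S EV libraries (x axis, bars 1 SE) for ALOX5AP and the 42 eicosanoid genes past the filter (y axis, grouped by role), filled where the adjusted p was under 0.05. ALOX5AP at -0.21 and LTA4H at 0.10 are open, ALOX5 at 1.24 lies to the right, and MGST1 and MGST2, listed at 0 in both NCI-H929 EV libraries, are the farthest to the left.

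Since leukotrienes are best known from other blood cells, markers of those cells were read in the same libraries. Of 12 myeloid markers 4 passed the filter (ITGAM, CD68, FCER1G and S100A9). CSF1R, MPO, TYROBP, S100A8, CSF3R and FCGR1A, which define monocytes, macrophages or neutrophils, stayed below 0.3 FPKM in all 8 libraries, and CD14 and LYZ were at most 0.454 and 0.552 FPKM. The summed myeloid level was 14.1 to 25.0 FPKM with EV and 22.1 to 46.4 FPKM with CTBP2, most of it CD68, a lysosomal protein that other cells also express. Without CD68 it was 0.994 to 3.30 FPKM with EV and 1.82 to 11.5 FPKM with CTBP2. ITGAM, the integrin CD11b, was 0 to 0.218 FPKM with EV. It was 4.14 FPKM in MM.1S CTBP2 replicate 1 and 2.21 FPKM in the second library labelled NCI-H929 CTBP2, both with CCND2. In the CTBP2 libraries with FGFR3 it was 0.165 and 0.917 FPKM. S100A9 was 0 to 0.835 FPKM with EV, 4.52 and 2.25 FPKM in the CCND2 libraries with CTBP2, and 0.361 and 0.461 FPKM in the FGFR3 ones. Both genes overlapped between the vectors, as did CD68 and FCER1G. Of 9 mast cell, basophil and eosinophil markers 1 passed (PRG2, up to 1.66 FPKM), and tryptase genes TPSAB1 and TPSB2 were at most 0.0253 FPKM. Their summed level was 0.222 to 1.74 FPKM with EV and 0.154 to 1.44 FPKM with CTBP2.

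Of 6 T and NK cell markers 3 passed, with a sum of 1.69 to 4.79 FPKM with EV and 4.29 to 55.9 FPKM with CTBP2. CD3E was 0.527 to 3.66 FPKM with EV. With CTBP2 it was 16.7 FPKM in NCI-H929 replicate 1, 4.76 FPKM in MM.1S replicate 1 and 2.44 FPKM in the second library labelled NCI-H929 CTBP2. CD3E reached 53.1 FPKM in the second library labelled MM.1S CTBP2, where CD2 (0.955 FPKM) and CD3D (0.213 FPKM) also had their highest values. CD7, of the same list, was listed at 0 in that library and in the other FGFR3 libraries. It was 0.503 to 1.27 FPKM in the CCND2 libraries. CD2 was listed at 0 in all 4 EV libraries and was 0.185 to 0.955 FPKM in the CTBP2 libraries, without overlap. That pattern was found in 7.21% of all genes tested, though CD2 itself did not pass the filter. NKG7 reached 0.981 FPKM in NCI-H929 CTBP2 replicate 1. Stromal and epithelial markers passed for 2 of 7, with KRT18 at 13.8 to 26.3 FPKM in the FGFR3 libraries. The part of other cells or of these transcripts in the ALOX5AP values was not tested.

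The genes nearest to ALOX5AP were found by the root mean square difference of centred log2(FPKM + 1) profiles over the 8 libraries, among 11777 genes whose median distance was 1.25. Described here are PPIC (0.334), a cyclophilin, TPBG (0.347), the trophoblast glycoprotein at the cell surface, HIST1H3E (0.421), a replication-dependent histone H3 gene with near-identical copies, and BHLHE40 (0.433), a transcriptional repressor. PPIC was 1.60 to 4.87 FPKM with EV and 14.0 to 19.1 FPKM with CTBP2. TPBG was 2.28 to 2.78 FPKM with EV and 6.75 to 16.7 FPKM with CTBP2. HIST1H3E was 0.187 to 1.06 FPKM with EV and 2.27 to 4.85 FPKM with CTBP2. BHLHE40 was 1.56 to 4.06 FPKM with EV and 7.75 to 11.4 FPKM with CTBP2. Like ALOX5AP, each of these 4 had all CTBP2 libraries above all EV libraries, which the choice by likeness entails.

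**Figure D5:**
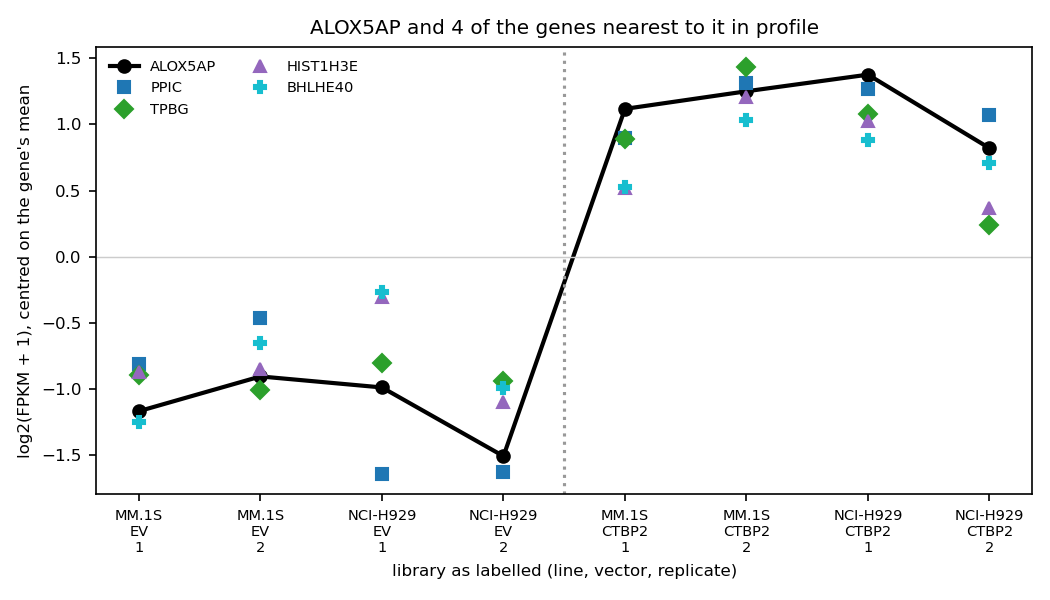
Log2(FPKM + 1) centred on each gene's mean (y axis) in the 8 libraries as labelled (x axis, EV left and CTBP2 right of the dotted line) for ALOX5AP (black line) and 4 of the genes nearest to it in profile. All 5 genes lie below 0 in every EV library and above 0 in every CTBP2 library, and PPIC in the NCI-H929 EV libraries is the farthest below.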

How the data were processed

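RNA from 8 cultures was made into TruSeq RNA libraries and sequenced, as the labels' protocols state. The build GRCh37 (hg19) and the tools DESeq2 2.11.40.2, HTSeq 0.9.1, STAR 2.6.0b-1, Trimmomatic 0.36.5 and FastQC 0.11.7 are listed in the submitters' processing notes. The values are FPKM as deposited by the authors, a unit read from the name of the deposited table. The program that computed them, the gene models and any use of strand are not given in the sources. FPKM carries no count, so no count test was run. Depth was estimated from the spacing of low FPKM in 8788 single-transcript genes of at least 1500 bases (52.8 to 61.6% whole within 0.1 fragment, against 20.0% by chance), and the floor of 3 fragments covers counting error only.

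Genes that reached 1 FPKM in 2 or more libraries were fitted as log2(FPKM + 1) with limma 3.58.1 (R 4.3.3, eBayes with trend), with line as labelled and vector as terms. P-values were adjusted by Benjamini-Hochberg over all 12583 genes, with a threshold of 0.05. The scale understates changes of low genes. The baseline contrast used the 4 EV libraries. The fit was tested on simulated data in which every library had the line of its label. That test therefore does not bear on the effect of the 2 displaced libraries. Alternatives were a pseudocount of 0.1, no filter or 5 FPKM, 3 other scalings (median-of-ratios, quantile, equal totals without immunoglobulin genes and CTBP2), no variance trend, each library left out, a replicate block, no line term, exchanged line labels, and 6 libraries. Leaving out or rescaling within the 6 was chosen after seeing the data.

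The members, the list of 82 eicosanoid genes including ALOX5AP and the marker lists (plasma, myeloid, mast cell to eosinophil, T and NK, stromal and epithelial) were chosen with earlier results of these data known. Named were the members, per role the called genes (up to 4 per direction by size) and the most abundant gene, and the 5 genes nearest to ALOX5AP, 1 of which is not reported here. PTGS1, PTGS2, ABCC1, COTL1, LTB4R2, GPX4, the genes listed as below the filter and single markers were named after their values were seen. The labels give biological duplicates and no more, so p-values measure the spread between these libraries, which may be technical.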

Additional observations from a re-analysis of the deposited data

How the results depend on the processing

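The count of all genes called with CTBP2, 420 in 8 libraries, was 1 to 723 with 1 library left out, 3082 in 6 libraries, 4287 with the line labels exchanged and 2 with no line term. In 6 libraries it was 1321 to 2550 with 1 more library left out, 3373 under equal totals and 2749 under quantile normalization. For the list without ALOX5AP, 1 called gene became 0 to 2 with 1 library left out, 2 under equal totals, 9 in 6 libraries, 17 with the labels exchanged and 0 with no line term. In 6 libraries it was 4 to 8 with 1 more left out, 18 under equal totals and 7 under quantile normalization. Between the EV libraries 6862 genes were called, 4294 with no filter, 3960 to 4634 with 1 library left out and 5 in a 4-group fit of all 8 libraries. Of the list, 32 became 19 to 23 with 1 left out and 0 in that fit. Equal totals moved the median of all genes with CTBP2 from 0.04 to 0.27 and between the lines from -0.10 to -0.27, and the calls in 8 libraries from 192 higher and 228 lower to 482 and 57.

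ALOX5AP with CTBP2 stayed between 2.15 and 2.62 under all 27 alternatives, with 2.55 under equal totals and 2.61 under equal totals in 6 libraries. With 1 library left out, from 8 or from 6, the fold change of ALOX5 ran from -0.38 to 0.76, of LTA4H from -0.18 to 0.14, of PLA2G4C from -0.016 to 1.01 and of GGT1 from -0.026 to 0.92. The lowest ALOX5 value was without replicate 2 labelled MM.1S CTBP2, and the lowest PLA2G4C and GGT1 values were without replicate 2 labelled NCI-H929 CTBP2. LTA4H was 0.13 under quantile normalization and 0.25 under equal totals (0.18 and 0.22 in 6 libraries). Between the EV libraries with 1 left out, ALOX5AP ran from -0.47 to 0.048 and LTA4H from -0.019 to 0.23, and LTA4H was -0.099 under equal totals. The cause of these turns was not tested.

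Replicate numbers only name the libraries. Deviations of same-numbered libraries correlated at 0.0117 in MM.1S and 0.109 in NCI-H929 across genes, which does not pair them. With a replicate block 1 gene was called with CTBP2 in place of 420, 0 list genes in place of 1 (PLA2G6, adjusted p = 0.147), and 6702 genes between the lines. With 2 libraries a group, 2 of them against their line label, and depth known only by estimate, changes of ALOX5 inside its wide interval were beyond detection, and LTC4S, under 10 estimated fragments in every library, was not tested.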
